A study of Mus musculus with 8 samples.

Results

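Stellate cell and extracellular matrix genes were examined in the livers of db/db mice, which lack a working leptin receptor and become obese and diabetic. The gene set held 40 named genes, picked by symbol from the 41388 Ensembl features counted in each library, and every one of the 40 was present in the counts. The AdGFP group (n = 4 mice) had received a tail-vein adenovirus carrying green fluorescent protein, and the AdNAMPT group (n = 4) the same kind of virus carrying NAMPT, the rate-limiting enzyme of NAD salvage. All 8 mice were C57B/6J db/db littermates, randomised at 5 weeks of age and sampled at 10 weeks, with 4 to 5 weeks of overexpression per the series description, so that both groups shared the leptin receptor defect and exposure to adenovirus. The db/db genotype comes from the sample titles, since the genotype label of the AdGFP mice reads control. No uninjected or lean liver was analysed here, so the levels below describe obese, virus-treated liver only.

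Hepatic stellate cells are the vitamin A-storing pericytes that lie between hepatocytes and sinusoidal endothelium. They carry the PDGF receptor beta and produce hepatocyte growth factor and reelin, and in injured liver they become contractile myofibroblasts that secrete fibrillar collagens, which is the main source of scar matrix in fibrosis. Liver matrix also holds basement membrane proteins of vessels and ducts, the beaded filaments of collagen VI, elastic fibres of portal tracts, and soluble glycoproteins such as vitronectin that hepatocytes make and release into plasma. In whole liver, fewer cells of a type and less RNA per cell cannot be told apart.

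Libraries held 12006713 to 19879814 counted reads, at which 3 reads correspond to 0.151 to 0.250 CPM (counts scaled to a common library total). Levels of 1 gene across libraries are given as CPM after scaling by trimmed mean of M-values (TMM), and levels of different genes are compared only as RPKM, which divides by exonic length. Nampt itself measured 107, 149, 160 and 148 scaled CPM in AdGFP mice 1 to 4 and 144, 120, 172 and 168 in AdNAMPT mice 1 to 4, with a log2 fold change of 0.08 (SE 0.15; limma adjusted p = 0.915). Because Nampt did not separate the groups, AdNAMPT below means the libraries labelled so, and every direction rests on those labels. Ribosomal RNA features took 1.77 to 2.63% of reads in AdGFP and 0.863 to 1.62% in AdNAMPT, and Gm42418 took 0.996 to 2.25% against 0.200 to 0.233%; their part in the results below was not tested. AdNAMPT replicate 1 had the fewest reads and the lowest weight in the fit (0.440, against 0.811 to 1.41 in the other 7 libraries). P-values set the difference between groups against the spread among mice within the groups, for these 8 mice.

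Per exonic length, the set was led by genes that hepatocytes or quiescent stellate cells are known to express rather than by scar collagens. Vtn, which encodes the plasma glycoprotein vitronectin, had the highest mean RPKM at 811. It was followed by Col18a1 (collagen XVIII, the parent of endostatin) at 97.5, Fn1 (fibronectin) at 85.1, Dcn (the small proteoglycan decorin) at 78.8 and Colec11 (a collectin of stellate cells) at 29.8. Below these, Sparc lay at 13.9, Ecm1 at 12.7, Col14a1 at 9.75, Hgf at 6.27 and Reln at 5.56. The fibrillar collagens lay far lower, with Col3a1 at 4.07, Col1a2 at 1.25, Col1a1 at 1.13, Col5a1 at 0.790 and Col5a2 at 0.489. Close neighbours in this order overlapped in their ranges across libraries; Fn1 (74.0 to 106 RPKM) overlapped the ranges of Col18a1 (80.1 to 107) and Dcn (71.2 to 86.3), whereas Vtn (705 to 999) stood clear of all others. At the bottom were Timp1 (0.314), the inhibitor of metalloproteinases that is typical of activated stellate cells, and Lox (0.149), the collagen cross-linking enzyme.

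**Figure D1:**
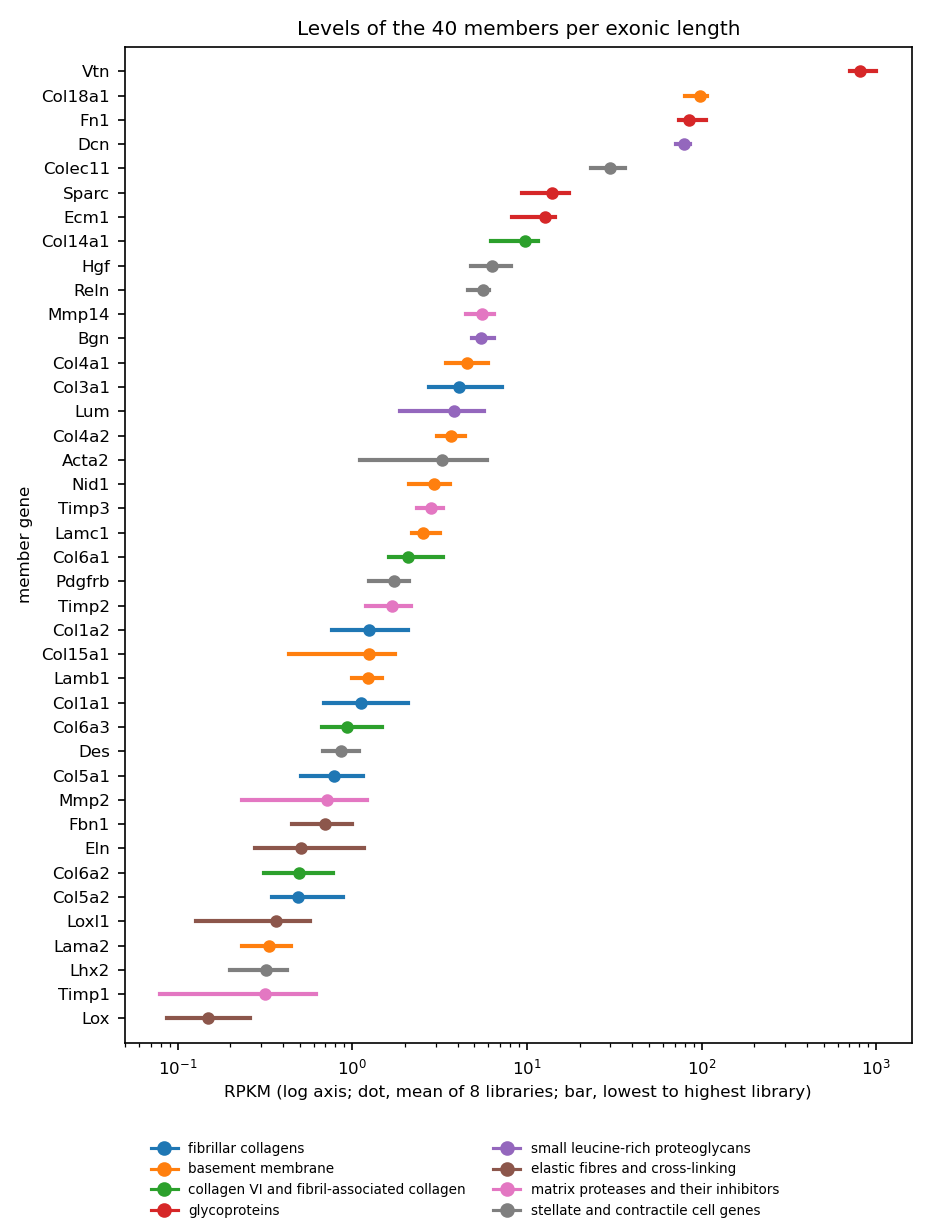
Mean RPKM of each of the 40 genes over 8 libraries on a log axis, with a bar from the lowest to the highest library and colours for the gene's role. Vtn lies at 811 RPKM, 4 further genes lie above 20 RPKM, and the fibrillar collagens lie between 0.489 and 4.07 RPKM.

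Of the 40 genes, 38 exceeded 1 CPM in at least 3 libraries and entered the test; Lox, with 7 to 15 reads per library, and Timp1, with 1 to 8 reads, did not. None of the 38 reached a limma adjusted p of 0.05, a threshold passed by 34 of the 12270 genes tested (0.277%). The smallest adjusted p in the set was 0.181, for Col6a3. An unadjusted p under 0.05 was found for 11 genes, against 9.69% of all genes tested. In the direction of AdNAMPT there were 10 of 38 (26.3%, against 4.65% of all genes), and in the direction of AdGFP there was 1, Ecm1 (against 5.04%). Col1a1, Col1a2, Col5a1, Col4a1, Lamc1, Nid1, Col6a1, Col6a3, Fbn1 and Pdgfrb made up the 10. Estimates were positive for 27 and negative for 11 of the 38, with a median log2 fold change of 0.17 against 0.00 over all genes tested (0.0015 before rounding). edgeR's quasi-likelihood test and the DESeq2 Wald test also called none at an adjusted p of 0.05 and gave 7 each at an unadjusted p under 0.05.

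The count of 11 depended on single mice and on the sample weights. It was 5 without AdGFP replicate 2, without AdGFP replicate 3 or without AdNAMPT replicate 4, was 6 without AdGFP replicate 1 or without AdNAMPT replicate 2, and was 12 without AdGFP replicate 4, without AdNAMPT replicate 1 or without AdNAMPT replicate 3. The share of all genes in the same fits was 7.84, 9.84, 9.03 and 7.78% without AdGFP replicates 1 to 4 in turn, and 10.5, 10.4, 12.1 and 11.3% without AdNAMPT replicates 1 to 4. Over both directions, 5 of 38 was thus nearer the level of all genes than 11 of 38. Genes higher in AdNAMPT numbered 4 without AdGFP replicate 2, against 4.63% of all genes. They numbered 5 without AdGFP replicate 3 (against 4.27%) and 5 without AdNAMPT replicate 4 (against 5.56%). Limma without sample weights, of which AdNAMPT replicate 1 had the lowest (0.440), gave 5 genes, against 7.83% of all genes. Of these, 4 were higher in AdNAMPT, against 3.49% of all genes. In that limma fit the unadjusted p was 0.0765 for Col1a1, 0.122 for Col1a2, 0.177 for Col4a1 and 0.0396 for Col5a1. Col6a3, Lamc1 and Pdgfrb had an unadjusted p under 0.05 in all 18 alternatives run.

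**Figure D2:**
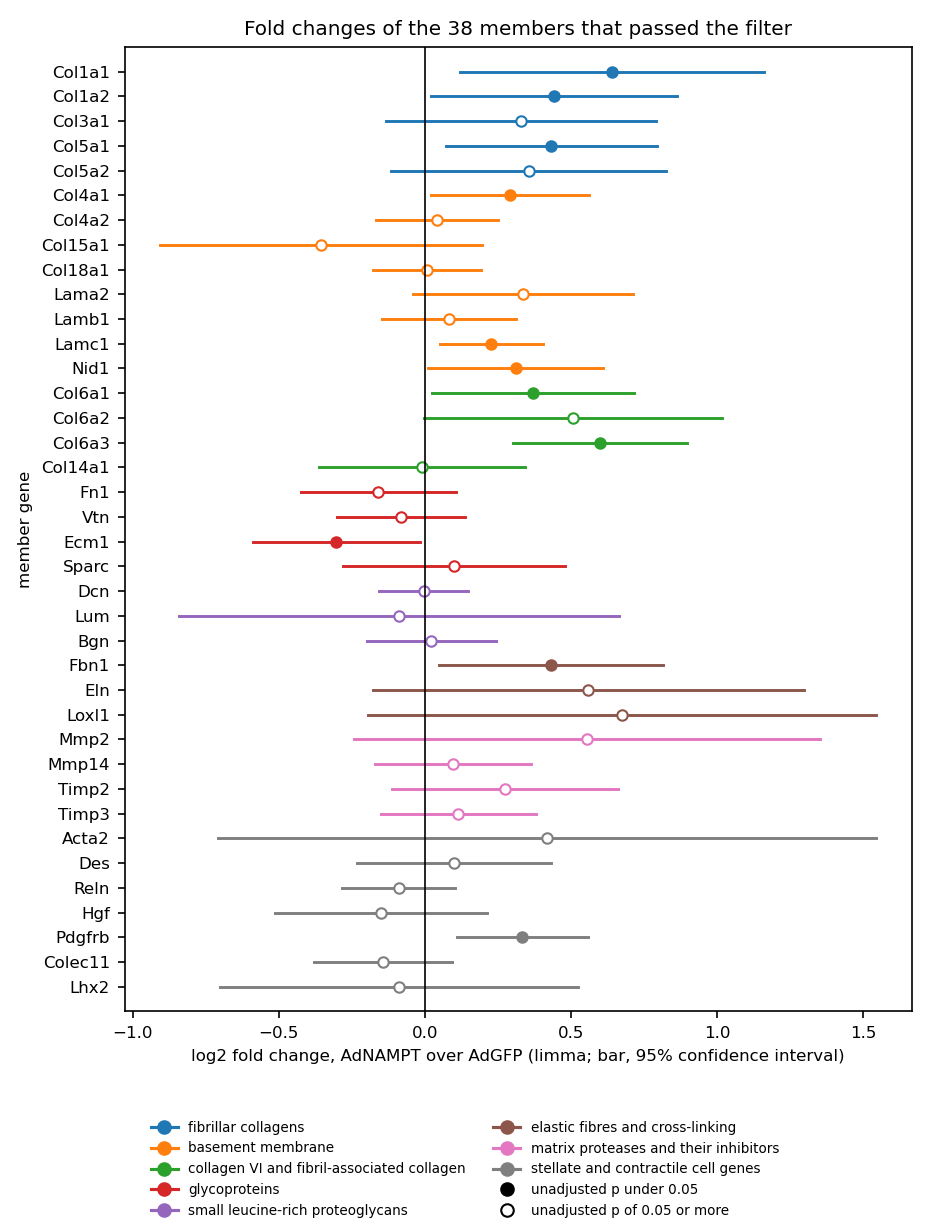
Log2 fold change, AdNAMPT over AdGFP, of the 38 genes tested, with 95% confidence intervals from limma, coloured by role and filled where the unadjusted p was under 0.05. Intervals of all 5 fibrillar collagens centre between 0.33 and 0.64, those of Col18a1, Dcn and Bgn centre within 0.02 of 0, and none of the 38 passed the adjusted threshold.

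Fibrillar collagens form the rope-like fibrils of scar and of normal portal stroma. All 5 tested had positive estimates, and 3 had an unadjusted p under 0.05; the median log2 fold change was 0.43. Col1a1, which encodes the alpha 1 chain of collagen I, measured 7.17, 4.91, 5.24 and 6.26 scaled CPM in AdGFP mice 1 to 4 and 5.00, 10.3, 7.24 and 13.7 in AdNAMPT mice 1 to 4. AdNAMPT replicates 2 and 4 lay above every AdGFP library, replicate 3 barely so, and replicate 1 lay among the lowest AdGFP values. The means were 5.89 ± 1.03 and 9.07 ± 3.79 (SD, n = 4 each), and the log2 fold change was 0.64 (SE 0.24; unadjusted p = 0.0204; limma adjusted p = 0.453).

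Col1a2, the partner chain of collagen I, measured 13.2, 10.0, 13.1 and 16.2 scaled CPM in the AdGFP mice and 10.6, 18.6, 16.1 and 25.1 in the AdNAMPT mice, replicates 1 to 4. AdNAMPT replicate 4 was again the highest library and replicate 1 lay near the AdGFP minimum. Its log2 fold change was 0.44 (SE 0.19; unadjusted p = 0.0408; limma adjusted p = 0.503). The RPKM ratio of Col1a1 to Col1a2 ranged from 0.715 to 1.02 across the 8 livers and overlapped between groups.

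Col3a1, whose product joins collagen I in fibrils, had the highest RPKM of this group. It measured 39.4, 32.8, 29.3 and 42.9 scaled CPM in AdGFP and 26.0, 43.2, 40.5 and 70.6 in AdNAMPT, with a log2 fold change of 0.33 (SE 0.21; unadjusted p = 0.145). The estimate was 0.12 without AdNAMPT replicate 4 and 0.21 without AdGFP replicate 3. Without AdNAMPT replicate 1 it was 0.47 (limma unadjusted p = 0.0310). The range of AdNAMPT enclosed that of AdGFP at both ends. Col5a1, which encodes a chain of the fibril-nucleating collagen V, measured 5.59, 4.68, 6.68 and 6.18 in AdGFP and 5.72, 6.82, 9.38 and 9.25 in AdNAMPT. AdNAMPT replicates 3 and 4 lay well above the AdGFP range and replicate 1 lay inside it (log2 fold change 0.43, SE 0.16; unadjusted p = 0.0226; limma adjusted p = 0.457), and without replicate 3 of AdNAMPT the estimate was 0.27. Without AdNAMPT replicate 2 the Col5a1 estimate was 0.59 (limma unadjusted p = 0.00398). Exons of Col5a1 overlap those of 2810430I11Rik and Gm13372 on the other strand, by 99 and 226 bases, and whether counting used strand is not stated. Col5a2 ran from 3.60 to 4.73 scaled CPM in AdGFP and from 4.11 to 4.57 in AdNAMPT replicates 1 to 3, with replicate 4 apart at 8.42.

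Promoter sequences are shown for a collagen I gene, for the collagen IV pair that shares its start region, for Col6a3, which had the smallest p of the set, and for Ecm1, the only gene of the set lower at an unadjusted p under 0.05. They are RefSeq promoters on GRCm38.p6, each running from 250 bases before to 50 bases after an annotated start and written along the gene's own strand. Capitals mark CCAAT or its reverse complement ATTGG, the GC box GGGCGG or its reverse complement CCGCCC, and TATAAA or its reverse complement TTTATA. Col1a2 lies at chr6:4505368-4505667 (plus strand), Col4a1 at chr8:11312777-11313076 (minus), Col4a2 at chr8:11312555-11312854 (plus), Col6a3 at chr1:90843922-90844221 (minus) and Ecm1 at chr3:95739520-95739819 (minus).
Col1a2: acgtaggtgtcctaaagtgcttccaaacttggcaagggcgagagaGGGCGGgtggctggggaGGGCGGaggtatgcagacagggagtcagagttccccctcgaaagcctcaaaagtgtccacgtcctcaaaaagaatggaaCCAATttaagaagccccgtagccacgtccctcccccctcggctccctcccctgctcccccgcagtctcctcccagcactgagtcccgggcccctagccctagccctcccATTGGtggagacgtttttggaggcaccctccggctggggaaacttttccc
Col4a1: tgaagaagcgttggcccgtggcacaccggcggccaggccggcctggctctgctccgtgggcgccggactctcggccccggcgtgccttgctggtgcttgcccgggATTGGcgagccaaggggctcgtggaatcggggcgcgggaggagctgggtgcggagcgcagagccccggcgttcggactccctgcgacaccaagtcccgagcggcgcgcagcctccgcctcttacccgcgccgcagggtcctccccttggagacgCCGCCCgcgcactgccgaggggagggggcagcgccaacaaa
Col4a2: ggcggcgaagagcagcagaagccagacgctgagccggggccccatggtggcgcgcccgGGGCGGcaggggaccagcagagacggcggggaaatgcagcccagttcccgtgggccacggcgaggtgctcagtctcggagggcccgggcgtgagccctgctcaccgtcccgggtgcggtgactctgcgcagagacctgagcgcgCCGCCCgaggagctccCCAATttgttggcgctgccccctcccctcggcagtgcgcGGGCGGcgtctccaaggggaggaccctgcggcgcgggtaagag
Col6a3: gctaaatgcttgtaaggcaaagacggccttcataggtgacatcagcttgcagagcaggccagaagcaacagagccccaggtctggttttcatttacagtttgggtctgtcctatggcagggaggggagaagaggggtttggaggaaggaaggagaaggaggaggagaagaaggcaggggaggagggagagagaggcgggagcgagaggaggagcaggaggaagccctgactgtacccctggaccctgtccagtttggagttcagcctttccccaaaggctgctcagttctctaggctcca
Ecm1: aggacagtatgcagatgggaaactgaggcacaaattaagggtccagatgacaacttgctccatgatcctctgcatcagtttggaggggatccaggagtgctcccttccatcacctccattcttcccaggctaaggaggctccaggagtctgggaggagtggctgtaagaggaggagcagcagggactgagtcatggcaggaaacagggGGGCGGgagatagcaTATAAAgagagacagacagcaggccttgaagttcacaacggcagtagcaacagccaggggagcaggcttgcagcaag

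Col1a2 held GC boxes starting 205 and 188 bases before its start, CCAAT 109 bases before it and ATTGG at the start itself. None of these letters stood in the Col6a3 window, whereas Ecm1 had a GC box 42 bases and TATAAA 27 bases upstream. RefSeq gave promoters for 28 of the 40 genes, 32 promoters in all. The GC box stood in 20 of the 32, against 35.7% of the 32851 mouse promoters in the table, CCAAT in 10 of 32 against 37.4%, and TATAAA in 3 of 32 against 13.6%. These are matches of letters on either strand, not shown sites of binding.

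Basement membrane genes encode the sheet on which endothelium, ducts and nerves rest, which in the healthy sinusoid is sparse. Of 8 genes, 7 had positive estimates, 3 had an unadjusted p under 0.05, and the median log2 fold change was 0.16. Col4a1 and Col4a2 encode the chains of the main collagen IV heterotrimer and are transcribed head to head. Their start sites lie at 11312826 and 11312805 on chromosome 8, their first exons overlap by 22 bases, and 78 bases of the promoter windows printed above are shared. ATTGG of the Col4a1 strand lies 145 bases before its start, and CCAAT of the Col4a2 strand 32 bases before its own. Col4a1 measured 30.3, 25.9, 30.5 and 28.4 scaled CPM in AdGFP mice 1 to 4 and 22.7, 34.8, 38.9 and 40.6 in AdNAMPT mice 1 to 4. AdNAMPT replicates 2 to 4 lay above all AdGFP libraries and replicate 1 lay below them all (log2 fold change 0.29, SE 0.12; unadjusted p = 0.0366; limma adjusted p = 0.492). Col4a2 varied less, at 23.5 to 26.9 scaled CPM in AdGFP and 19.7 to 28.3 in AdNAMPT (log2 fold change 0.04, SE 0.09; 95% confidence interval -0.17 to 0.25). The RPKM ratio of Col4a1 to Col4a2 was 1.003 to 1.245 in AdGFP and 1.122 to 1.4998 in AdNAMPT, ranges that overlapped.

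Laminins are cross-shaped trimers of an alpha, a beta and a gamma chain that polymerise on the cell surface. Lamc1 (ENSMUSG00000026478, chr1:153218922-153332786), the gamma 1 chain common to most laminins, measured 21.3, 19.9, 19.1 and 19.1 scaled CPM in AdGFP and 21.7, 22.8, 25.4 and 22.0 in AdNAMPT. All 4 AdNAMPT livers lay above all 4 AdGFP livers, though by a narrow margin between 21.3 and 21.7. Its log2 fold change was 0.23 (SE 0.08; unadjusted p = 0.0157; limma adjusted p = 0.426). Groups failed to overlap in this direction for 3 of the 38 genes (Lamc1, Col6a3 and Pdgfrb), against 2.09% of all genes tested. The beta 1 chain gene Lamb1 (10.7 to 13.1 in AdGFP, 11.3 to 14.7 in AdNAMPT) and the alpha 2 chain gene Lama2 (4.14 to 6.49, and 4.76 to 7.30) overlapped between groups, with log2 fold changes of 0.08 (SE 0.10) and 0.34 (SE 0.17).

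Nid1, encoding nidogen, the linker between laminin and collagen IV networks, measured 16.4, 13.9, 14.6 and 20.9 scaled CPM in AdGFP and 15.0, 21.4, 21.1 and 21.3 in AdNAMPT. AdNAMPT replicates 2 to 4 were nearly equal and lay just above the highest AdGFP liver, and replicate 1 fell among the lower AdGFP livers (log2 fold change 0.31, SE 0.14; unadjusted p = 0.0430; limma adjusted p = 0.504). Collagens XV and XVIII, which carry heparan sulfate or chondroitin sulfate chains and sit at the outer face of the basement membrane, had estimates near or below 0. Col18a1 measured 698, 611, 762 and 680 scaled CPM in AdGFP and 708, 658, 727 and 726 in AdNAMPT, a log2 fold change of 0.01 with a 95% confidence interval of -0.18 to 0.19; the sign of this estimate turned in 6 of 18 alternatives. Col15a1 measured 9.61, 9.51, 8.24 and 9.46 in AdGFP and 2.66, 5.80, 10.8 and 8.37 in AdNAMPT. The AdGFP livers were tightly grouped while the AdNAMPT livers spread on both sides of them, with replicate 1 far below (log2 fold change -0.36, SE 0.25; unadjusted p = 0.183). The estimate of Col15a1 was -0.078 without AdNAMPT replicate 2 and -0.12 without AdNAMPT replicate 1, but -0.58 without AdNAMPT replicate 4 and -0.69 without AdNAMPT replicate 3 (unadjusted p = 0.00832).

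Collagen VI forms beaded microfilaments that tether cells to the interstitial matrix, and its alpha 3 chain carries the C-terminal fragment endotrophin. Col6a3 (ENSMUSG00000048126, chr1:90765923-90843971) measured 8.89, 8.74, 8.86 and 9.54 scaled CPM in AdGFP mice 1 to 4 and 10.3, 13.7, 12.1 and 17.7 in AdNAMPT mice 1 to 4. The AdGFP livers were nearly equal and all AdNAMPT livers lay above them. The means were 9.01 ± 0.361 and 13.5 ± 3.16 (SD, n = 4 each). In the weighted limma fit AdNAMPT stood 1.52-fold higher (95% confidence interval 1.23 to 1.86, log2 fold change 0.60, SE 0.13, unadjusted p = 0.00099, limma adjusted p = 0.181). Across the 18 alternatives its estimate ran from 0.50 to 0.68 and its adjusted p from 0.0655 to 0.445.

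Col6a1 measured 7.46, 7.82, 7.93 and 8.93 scaled CPM in AdGFP and 8.71, 10.3, 8.50 and 14.4 in AdNAMPT. AdNAMPT replicates 2 and 4 lay above the AdGFP range and replicates 1 and 3 just inside its upper end (log2 fold change 0.37, SE 0.16; unadjusted p = 0.0383; limma adjusted p = 0.497). Col6a2, which neighbours Col6a1 on chromosome 10, ran from 2.72 to 5.04 in AdGFP and from 3.74 to 6.48 in AdNAMPT, with a log2 fold change of 0.51 (SE 0.23; unadjusted p = 0.0515). The RPKM ratio of Col6a3 to Col6a1 was 0.391 to 0.437 in AdGFP and 0.434 to 0.523 in AdNAMPT, so the ranges touched only at AdGFP replicate 1 and AdNAMPT replicate 1. Collagen XIV, a fibril-associated collagen that coats collagen I fibrils and is abundant in normal stellate cells, had an estimate near 0. Col14a1 measured 57.0, 70.5, 76.6 and 83.7 scaled CPM in AdGFP and 42.4, 78.2, 78.1 and 71.5 in AdNAMPT, with a log2 fold change of -0.01 (SE 0.16).

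**Figure D3:**
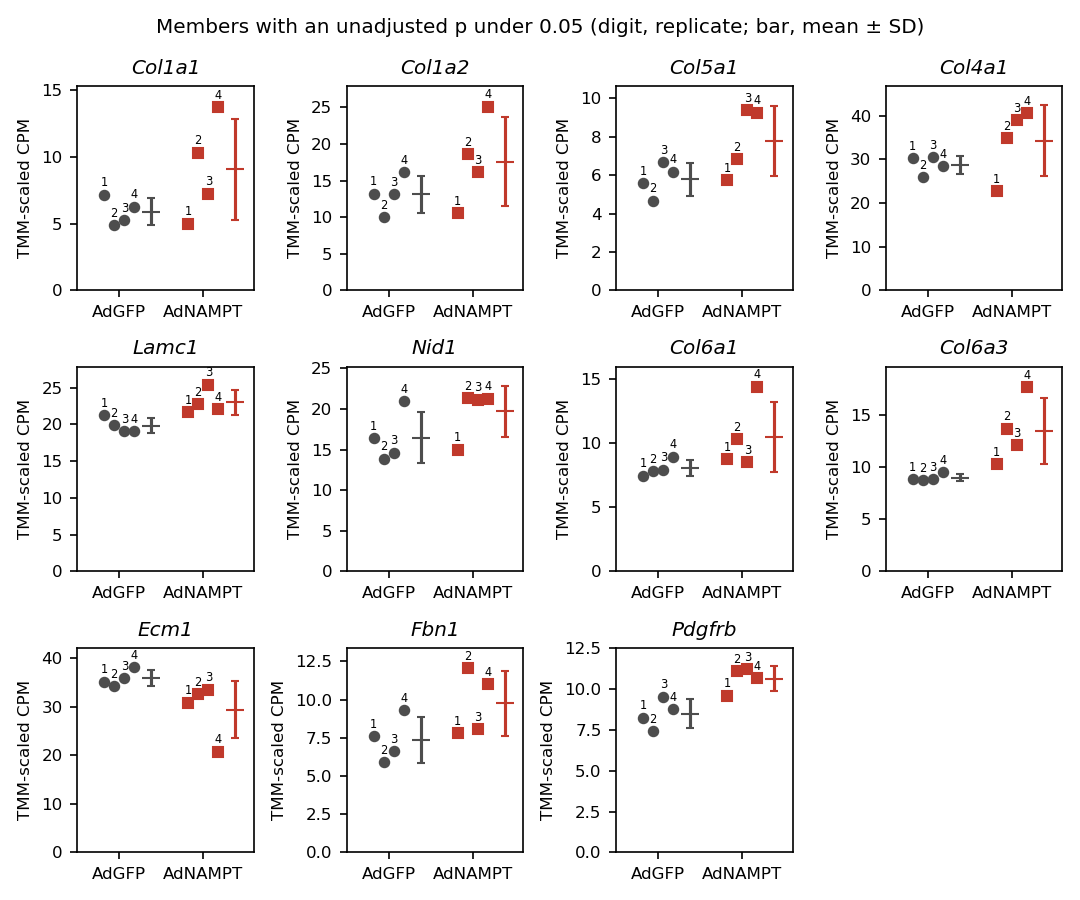
TMM-scaled CPM of the 11 genes with an unadjusted p under 0.05, each library drawn as a point with its replicate number, and mean ± SD (n = 4) beside it. AdNAMPT replicate 1 lies at or below the AdGFP maximum for 7 of the 10 genes higher in AdNAMPT, AdNAMPT replicate 3 for 3 of them, and AdNAMPT replicates 2 and 4 for 0.

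Matrix glycoproteins bridge cells to collagen. Of the 4 in the set, 3 had negative estimates and 1 an unadjusted p under 0.05. Vtn measured 1712, 1799, 1588 and 1743 scaled CPM in AdGFP and 1963, 1724, 1383 and 1512 in AdNAMPT, a log2 fold change of -0.08 (SE 0.10). Fn1, made in liver both by hepatocytes for plasma and by stromal cells, ran from 915 to 1302 in AdGFP and from 895 to 1003 in AdNAMPT (log2 fold change -0.16, SE 0.12). Fn1 shares 3980 exonic bases with Apol7d on the opposite strand. Sparc, encoding the collagen-binding protein osteonectin, ran from 35.6 to 56.9 and from 30.5 to 58.8 (log2 fold change 0.10, SE 0.17).

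Ecm1 (ENSMUSG00000028108, chr3:95734147-95739569), whose product extracellular matrix protein 1 is made by hepatocytes and holds latent TGF-beta inactive, was lower in AdNAMPT. It measured 35.2, 34.3, 35.9 and 38.2 scaled CPM in AdGFP mice 1 to 4 and 30.9, 32.6, 33.6 and 20.8 in AdNAMPT mice 1 to 4. All AdNAMPT livers lay below all AdGFP livers, and AdNAMPT replicate 4 was the lowest by a wide margin. Its log2 fold change was -0.30 (SE 0.13; unadjusted p = 0.0394; limma adjusted p = 0.5003), and without AdNAMPT replicate 4 the groups still did not overlap but the estimate was -0.15 (unadjusted p = 0.0755). Ecm1 was the only one of the 38 genes whose groups failed to overlap in this direction, against 2.7% of all genes tested; on library size alone the groups of Ecm1 overlapped.

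Small leucine-rich proteoglycans decorate collagen fibrils and set their spacing. Dcn, among the most abundant stellate cell transcripts, was close to constant at 167, 161, 177 and 167 scaled CPM in AdGFP and 167, 180, 155 and 164 in AdNAMPT. Its log2 fold change of -0.0047 had a 95% confidence interval of -0.16 to 0.15. Bgn (biglycan) ran from 31.0 to 37.2 and from 29.4 to 39.2 (log2 fold change 0.02, SE 0.10). Lum (lumican) varied more, at 9.18, 4.83, 5.74 and 10.5 in AdGFP and 11.4, 7.64, 3.74 and 11.3 in AdNAMPT, with low and high livers in both groups. Its weighted log2 fold change was -0.09 (SE 0.34) although the unweighted mean was higher in AdNAMPT (8.52 ± 3.63 against 7.57 ± 2.72 CPM), and the sign turned in 10 of 18 alternatives.

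Elastic fibre genes were present at low counts. Fbn1, encoding the microfibril protein fibrillin 1, measured 7.5997, 5.904, 6.615 and 9.312 scaled CPM in AdGFP and 7.821, 12.07, 8.066 and 11.02 in AdNAMPT. AdNAMPT replicates 2 and 4 lay above the AdGFP range, and replicates 1 and 3 lay within it (log2 fold change 0.43, SE 0.17; unadjusted p = 0.0312; limma adjusted p = 0.487), and without AdNAMPT replicate 2 the estimate was 0.26. Across the 18 alternatives the Fbn1 estimate ran from 0.26 to 0.59. Exons of Fbn1 share 3472 bases with Gm9913 on the other strand. Eln (elastin) ran from 0.749 to 1.22 in AdGFP and reached 3.005 in AdNAMPT replicate 4 only, with the other 3 AdNAMPT livers at 1.05 to 1.30. Loxl1, which cross-links elastin, measured 1.51, 0.460, 1.25 and 0.458 in AdGFP and 1.85, 1.02, 1.46 and 1.83 in AdNAMPT, from 6 to 31 reads per library. At this depth the log2 fold change of 0.67 carried an SE of 0.40 (unadjusted p = 0.116), and it was 0.34 without AdGFP replicate 4 and 1.02 without AdGFP replicate 1 (unadjusted p = 0.029). Lox, below the filter, ran from 0.437 to 0.767 in AdGFP and from 0.546 to 1.21 in AdNAMPT.

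Matrix metalloproteinases cleave matrix proteins, and tissue inhibitors of metalloproteinases (TIMPs) block them. None of the 4 genes tested had an unadjusted p under 0.05. Mmp2 (gelatinase A) measured 2.58, 0.767, 1.31 and 2.21 scaled CPM in AdGFP and 3.06, 3.68, 1.65 and 2.24 in AdNAMPT, from 10 to 54 reads (log2 fold change 0.55, SE 0.36; unadjusted p = 0.154). Without AdNAMPT replicate 2 the estimate was 0.19, and without AdNAMPT replicate 3 it was 0.94 (unadjusted p = 0.0164). Mmp14, the membrane-bound activator of Mmp2, measured 14.3, 14.2, 12.2 and 16.7 in AdGFP and 12.4, 16.7, 15.9 and 13.7 in AdNAMPT (log2 fold change 0.10, SE 0.12). Timp2 (4.88 to 7.94 and 5.64 to 8.48) and Timp3 (19.9 to 26.6 and 20.6 to 27.0) overlapped between the groups, with log2 fold changes of 0.27 (SE 0.18) and 0.11 (SE 0.12); Timp3 shares 1733 exonic bases with Syn3 on the other strand. Timp1 ran from 0.0767 to 0.574 in AdGFP and from 0.0972 to 0.546 in AdNAMPT, too few reads to compare.

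Genes of the stellate cell itself gave mixed estimates. Of 7, only Pdgfrb had an unadjusted p under 0.05, 4 had negative estimates, and the median log2 fold change was -0.09. Pdgfrb (ENSMUSG00000024620, chr18:61045150-61085061), the receptor for the main stellate cell mitogen, measured 8.25, 7.44, 9.55 and 8.78 scaled CPM in AdGFP and 9.59, 11.1, 11.2 and 10.7 in AdNAMPT. All AdNAMPT livers lay above all AdGFP livers, the closest pair at 9.59 and 9.55. The means were 8.50 ± 0.889 and 10.7 ± 0.745 (SD, n = 4 each), with a log2 fold change of 0.33 (SE 0.10; unadjusted p = 0.0075; limma adjusted p = 0.382).

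Colec11, with the highest RPKM of these 7, measured 40.9, 44.2, 52.8 and 42.0 scaled CPM in AdGFP and 31.0, 41.8, 43.8 and 40.4 in AdNAMPT, with a log2 fold change of -0.14 (SE 0.11). Reln (98.7 to 125 and 99.4 to 120), Hgf (14.7 to 21.9 and 13.1 to 21.6) and the stellate transcription factor gene Lhx2 (0.916 to 1.93 and 1.06 to 1.69) overlapped between groups, with log2 fold changes of -0.09 (SE 0.09), -0.15 (SE 0.16) and -0.09 (SE 0.28). Acta2, which encodes the smooth muscle actin used as the marker of stellate cell activation, measured 5.88, 4.06, 2.06 and 6.49 in AdGFP and 8.63, 7.30, 2.14 and 10.5 in AdNAMPT. AdNAMPT replicate 3 lay beside the lowest AdGFP liver while the other 3 AdNAMPT livers lay above the AdGFP range, and the log2 fold change of 0.42 had an SE of 0.51 (unadjusted p = 0.430). It was -0.0015 without AdGFP replicate 3, -0.027 without AdNAMPT replicate 2 and 0.93 without AdNAMPT replicate 3 (unadjusted p = 0.0172). Des (desmin) ran from 2.76 to 3.37 and from 2.87 to 3.95 (log2 fold change 0.10, SE 0.15). Acta2 was low in AdNAMPT replicate 3, whose Col5a1 level of 9.38 was the highest of the 8 livers, so the order of the mice differed between these genes. Col1a1, Col1a2, Col3a1 and Col5a2 were, like Acta2, highest in AdNAMPT replicate 4.

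**Figure D4:**
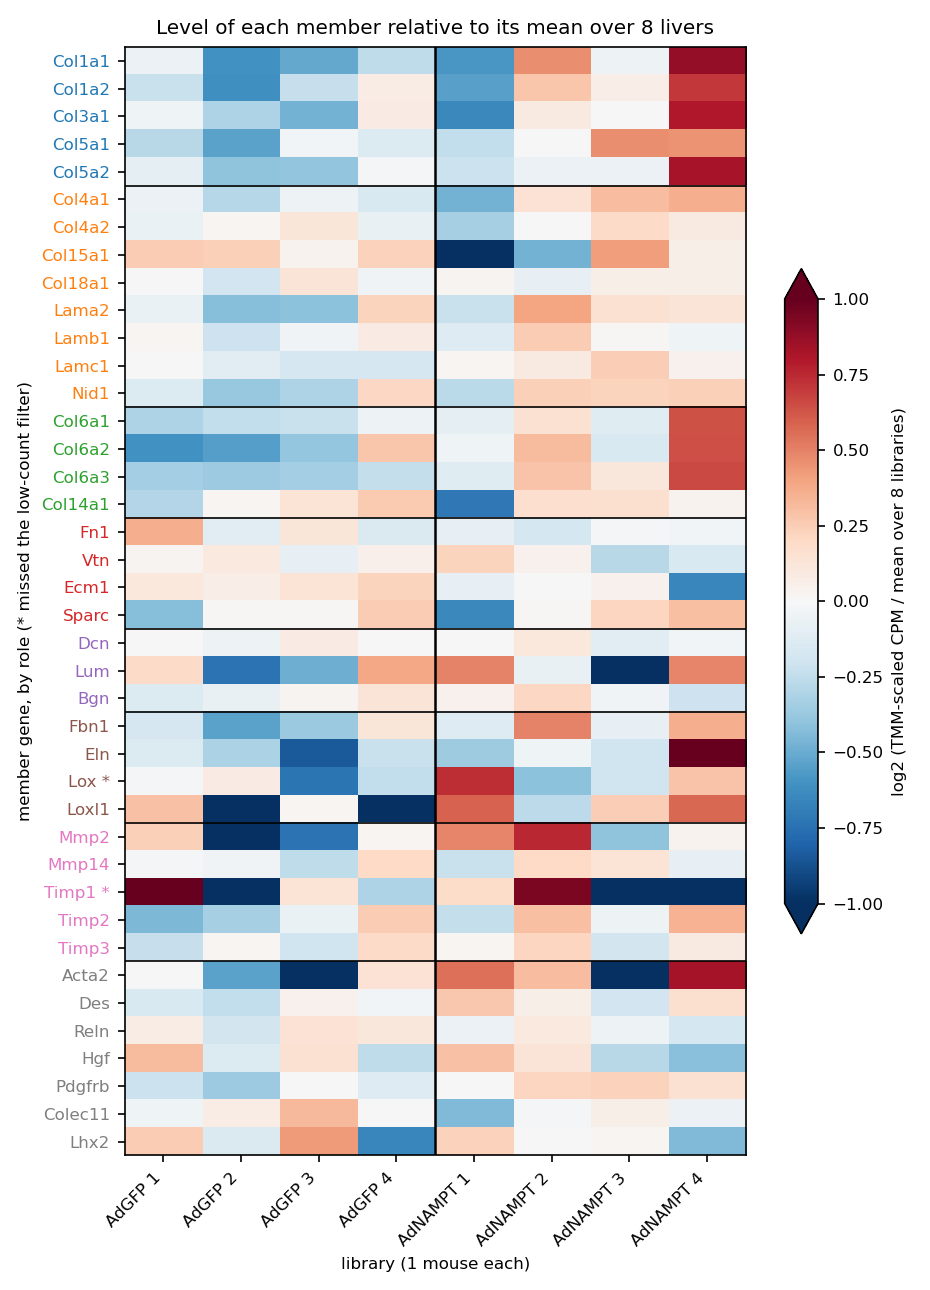
Level of each of the 40 genes in each library as log2 of TMM-scaled CPM over the gene's mean across 8 libraries, with colours limited at -1 and 1 and genes ordered by role. AdNAMPT replicate 4 holds the darkest red among the collagens I, III, V and VI, AdNAMPT replicate 1 is blue for most of the same genes, and rows of Dcn, Reln and Col18a1 stay pale.

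Levels of collagens I, III, V and VI varied widely among the AdNAMPT mice. Summed over the 8 genes of collagens I, III, V and VI, levels were 88.9, 75.4, 77.9 and 99.8 scaled CPM in AdGFP mice 1 to 4 and 74.4, 112.8, 102.2 and 165.7 in AdNAMPT mice 1 to 4. The ratio of means was 1.33, yet the lowest liver of all was AdNAMPT replicate 1 and the highest AdNAMPT replicate 4, and the groups overlapped. This grouping joins parts of different roles and leaves out Col14a1. It holds only genes with positive estimates, so a ratio above 1 follows from the choice of genes. By role, the ratio of means was 1.31 for the fibrillar collagens and 1.04 for collagen VI with Col14a1, with overlapping groups in each. Over the 38 genes, AdNAMPT replicate 4 was the highest of 8 libraries for 12 and AdNAMPT replicate 2 for 8, AdGFP replicate 2 was the lowest for 14 and AdNAMPT replicate 1 for 7. Without AdNAMPT replicate 1, the number of genes of the set with non-overlapping groups was 8 in place of 4 (21.1% of the set, against 8.86% of all genes tested), and without AdGFP replicate 4 it was 7 (18.4% against 7.35%). It was 4 without 5 of the remaining 6 libraries (10.5% of the set, against 7.41 to 9.51% of all genes) and 6 without AdNAMPT replicate 3. Summed levels of the basement membrane group (720 to 877 scaled CPM in AdGFP, 790 to 870 in AdNAMPT) and of the proteoglycans (198 to 217, and 192 to 227) overlapped.

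**Figure D5:**
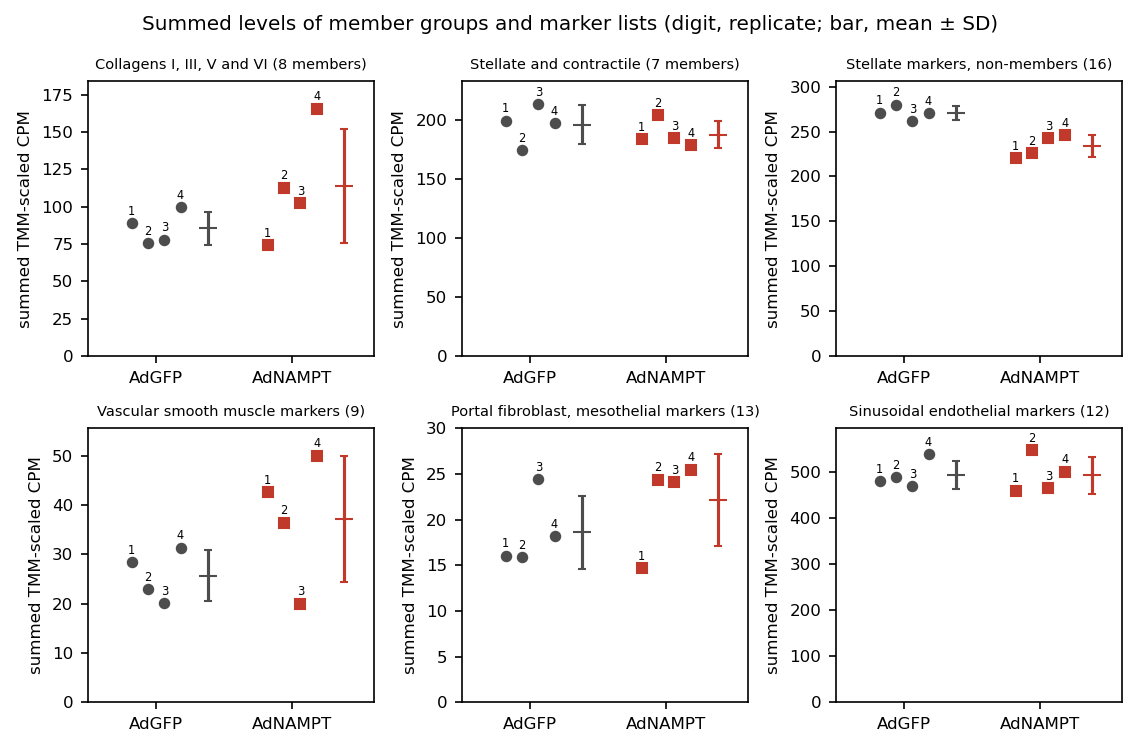
Summed TMM-scaled CPM of gene groups and of marker lists, each library drawn with its replicate number, with mean ± SD (n = 4). The sum of collagens I, III, V and VI runs from 74.4 to 165.7 in AdNAMPT and encloses the AdGFP range. The sum of 16 stellate cell markers outside the set is 220 to 246 in AdNAMPT against 261 to 280 in AdGFP.

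Stellate cell identity was checked with 22 marker genes, 6 of which belong to the set. Lrat, the enzyme that stores vitamin A as retinyl ester, was at 18.1 to 40.3 scaled CPM and Rgs5 at 55.9 to 97.7, while Gfap was at 0 to 0.458, with 0 reads in 1 library. The 16 markers outside the set summed to 261 to 280 in AdGFP and 220 to 246 in AdNAMPT; AdNAMPT was lower, without overlap, on TMM and on DESeq2 scaling, and the groups overlapped on library size alone. Among the 21 markers tested, 1 was higher (Pdgfrb) and 3 were lower at an unadjusted p under 0.05 (4.65 and 5.04% of all genes), with 9 positive and 12 negative estimates and none called. Groups did not overlap for 2 higher markers, Pdgfrb and Cygb, and for 2 lower ones, Colec10 and Rgs5 (2.09 and 2.7% of all genes tested). The 3 lower ones were Colec10 (log2 fold change -0.29, unadjusted p = 0.00314), Rgs5 (-0.40, unadjusted p = 0.00617) and Rspo3 (-0.37, unadjusted p = 0.0357).

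Other cells of the liver also make these matrix genes. The 9 vascular smooth muscle markers, which include Acta2 and Des, summed to 20.10 to 31.37 scaled CPM in AdGFP and 20.02 to 50.02 in AdNAMPT. Of the 5 tested, all had positive estimates, with a median log2 fold change of 0.31 and 0 at an unadjusted p under 0.05. Their sum was nearly as low in AdGFP replicate 3 (20.10) as in AdNAMPT replicate 3 (20.02). Acta2, itself a part of this sum, was also lowest in those 2 livers. Myh11, the smooth muscle myosin heavy chain, was at 3.06 in AdNAMPT replicate 3 and at 10.5 to 15.3 in the remaining AdNAMPT mice. Myocd had 0 reads in 3 libraries and Actg2 in 1. The 13 portal fibroblast and mesothelial markers summed to 15.9 to 24.4 and 14.7 to 25.5, with AdNAMPT replicate 1 lowest, 7 of 8 tested positive (median log2 fold change 0.43), 0 at an unadjusted p under 0.05, and Gli1 at 0 in 2 libraries and Upk1b in 1. Sinusoidal endothelial markers (12 genes) summed to 470 to 539 and 460 to 547, and Kupffer cell and macrophage markers (12 genes) to 368 to 469 and 260 to 437, lowest in AdNAMPT replicates 1 and 2. Of the 12 macrophage markers, 11 had negative estimates (median log2 fold change -0.27). Vsig4, Timd4 and Clec4f were lower at an unadjusted p under 0.05, 3 of 12 against 5.04% of all genes. Groups did not overlap for 2 macrophage markers in that direction, against 2.7% of all genes. Of 12 hepatocyte markers, 10 had negative estimates (median log2 fold change -0.14). At an unadjusted p under 0.05 in limma, 2 of the 12 were lower, against 5.04% of all genes, and 0 were higher. Their summed levels overlapped between groups. Among all genes tested, 50.4% had positive estimates. The part of these cells in the levels of the set was not tested.

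Related genes outside the set were read from lists by function, beside all genes tested, of which 50.4% had positive estimates, 4.65% were higher and 5.04% lower at an unadjusted p under 0.05. Enzymes and chaperones that fold, hydroxylate and trim procollagen (19 tested of 21) had 9 positive and 10 negative estimates with a median log2 fold change of -0.01, and 1 gene in each direction had an unadjusted p under 0.05. They were Crtap, a subunit of the prolyl 3-hydroxylation complex (4.23 to 5.95 scaled CPM in AdGFP and 6.07 to 6.37 in AdNAMPT, log2 fold change 0.32, unadjusted p = 0.0364), and Pcolce2, an enhancer of procollagen C-proteinase (2.22 to 2.76 and 0.750 to 1.94, log2 fold change -0.98, unadjusted p = 0.00344). Neither passed the adjusted threshold.

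Of 61 further matrix genes, 47 were tested, 34 had positive estimates (72.3%), and 7 had an unadjusted p under 0.05, all higher in AdNAMPT (14.9%). These were Hspg2, Tnxb, Fmod, Adamtsl2, Col27a1, Fbln1 and Ogn, and the median log2 fold change of the 47 was 0.17. Hspg2, which encodes the basement membrane proteoglycan perlecan, had the smallest p, at 30.0, 24.8, 29.1 and 33.5 scaled CPM in AdGFP and 35.4, 45.1, 39.1 and 36.6 in AdNAMPT. Its groups did not overlap (log2 fold change 0.43, SE 0.10; unadjusted p = 0.00153; limma adjusted p = 0.223). The negative estimate with the smallest p was that of Mmp19 (log2 fold change -0.11, unadjusted p = 0.222).

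Genes known to respond to TGF-beta, the cytokine that drives collagen transcription in stellate cells, had positive estimates in 11 of 12, with a median log2 fold change of 0.25, but only Ski, a repressor of SMAD signalling, had an unadjusted p under 0.05 (11.9 to 15.4 scaled CPM in AdGFP, 15.4 to 17.3 in AdNAMPT; log2 fold change 0.28, unadjusted p = 0.0122). Tgfbi was the single negative estimate (log2 fold change -0.17, unadjusted p = 0.118). Matrix receptors, the integrins, syndecans and collagen-binding kinases through which cells sense matrix, were mixed in direction: of 18 tested, 1 was higher (Itga3, log2 fold change 0.30, unadjusted p = 0.0473) and 4 were lower at an unadjusted p under 0.05. The lower ones were Sdc3 (log2 fold change -0.31, unadjusted p = 0.0142), Sdc1, Sdc2 and Itga1. No gene of these 4 lists passed the adjusted threshold.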

How the data were processed

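RNA of 8 livers was sequenced as single 50-base reads. Per the study's methods, the authors aligned reads to the Ensembl release 76 assembly and counted uniquely aligned reads per gene; the submitters' processing notes name STAR 2.4.0b, featureCounts 1.4.5 and GRCm38. The deposited counts are whole reads per Ensembl feature. The deposited CPM are those counts scaled to a common library total, with no further factor, and the deposited RPKM are CPM per kilobase of exons. The labels name a Ribo-Zero kit and the methods poly-A selection. Strand use is not given in the sources used here.

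Symbols came from GENCODE M21, which matched 40340 of 41388 features. As in the study's methods, 355 ribosomal RNA features were left out, as were genes not above 1 CPM in at least 3 libraries, leaving 12270 genes. TMM-scaled counts were fitted with limma 3.58.1 (voomWithQualityWeights, group as the only term), with Benjamini-Hochberg adjustment over all genes and a threshold of 0.05. edgeR 4.0.16, DESeq2 1.42.0, other scalings, filters, a GC correction, a replicate block and fits without each library were alternatives, in R 4.3.3; sums, promoter matches and figures used Python 3.11.15. The fits were tested on simulated data. Groups and replicate numbers came from the sample titles.

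The 40 genes and all lists were chosen with earlier results of these data known, and so were the tests. Every gene of the set is accounted for. Values of every library are given for 23 of them: genes with an unadjusted p under 0.05 and, in each of 8 roles, the gene with the highest mean RPKM and the one with the largest fold change. From each pathway list the gene with the smallest p in each direction is named, and other genes were named after their values were seen.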

Additional observations from a re-analysis of the deposited data

Results flagged for a closer look

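In 5 of 96 groups of 4 libraries examined, 1 library stood apart from the other 3 by more than Dixon's 95% critical value; chance alone gives about 4.8. Col5a2 reached 8.42 scaled CPM in AdNAMPT replicate 4, where the other AdNAMPT livers had 4.11 to 4.57. Eln, too, was high in that liver, at 3.005 against 1.05 to 1.30. Nid1 was low in AdNAMPT replicate 1, at 15.0 against 21.1 to 21.4, and so was the summed level of Col6a1, Col6a2, Col6a3 and Col14a1, at 65.5 against 102.5 to 110.1. Col15a1 was low in AdGFP replicate 3, at 8.24 against 9.46 to 9.61.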

How the results depend on the processing

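No gene of the set was called under any alternative at an adjusted p of 0.05, and its median log2 fold change stayed between 0.12 and 0.26 in all of them. Genes with an unadjusted p under 0.05 numbered 7 by edgeR, 7 by DESeq2 and 5 without sample weights, and 5 to 12 when each library was left out in turn (7.78 to 12.1% of all genes). DESeq2 called 75 genes overall in place of 34. Without each library in turn, 4 to 8 genes of the set had non-overlapping groups (10.5 to 21.1%), against 7.35 to 9.51% of all genes tested. Scaling by library size alone moved the median of all genes by 0.0844 on the log2 scale and gave 12 genes of the set with an unadjusted p under 0.05, all higher, when 1395 genes in all were higher and 214 lower. At an adjusted p of 0.10, DESeq2 and library size alone would each call 1 gene of the set.

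Same-numbered mice are different animals, and their deviations correlated at 0.247, -0.0723, 0.234 and -0.0160. Mice of different number correlated at -0.342 to 0.208. So few values cannot settle whether the numbers pair the livers. With the replicate block, 41 genes were called, none of the set. In that fit 15 genes of the set had an unadjusted p under 0.05, against 9.63% of all genes. With the GC correction and the block there were 14, against 8.66%.

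Alternatives were followed gene by gene for the 23 genes whose values are given for every library. Among these, signs turned for 7 whose estimates were near 0 or poorly determined, and the cause was not tested. Col18a1 became -0.086 with the GC correction and -0.073 with GC correction and block. Library size alone gave 0.075 for Col14a1, 0.0059 for Vtn, 0.080 for Dcn and 0.0065 for Lum, and the GC correction 0.0028 for Col14a1 and 0.018 for Dcn. Lum was 0.16 by edgeR, 0.17 by DESeq2, 0.053 without sample weights, 0.00055 without the filter, 0.057 with the block and 0.078 with GC correction and block. When each library was left out in turn, the log2 fold change ran from -0.034 to 0.061 for Col18a1, from -0.14 to 0.086 for Col14a1, from -0.19 to 0.013 for Vtn, from -0.078 to 0.055 for Dcn, from -0.33 to 0.21 for Lum, from -0.0019 to 0.18 for Mmp14 and from -0.027 to 0.93 for Acta2.

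Depth limited Lox, Timp1, Loxl1 and Mmp2, which had as few as 7, 1, 6 and 10 reads in a library.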
